A study of Mus musculus with 6 samples.

Results

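Of the genes measured in fat tissue of NOD mice, 46 that carry out DNA replication and cell division are described here. They were listed by symbol for their known roles, by a rule that uses no measured value but with earlier results of these data known, and each was read through the probe set with the highest mean signal over the 6 arrays. A probe set with a single gene symbol was found for 45 of the 46, among 18193 genes so covered; cyclin B1 (Ccnb1) was not analysed here. Of the 45, 30 had a mean signal above 164, the filter set at the 40th percentile of all probe sets, and 15 lay under it. The filter kept 13043 genes in all.

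NOD mice are an inbred strain that develops autoimmune diabetes. The normoglycemic group (NOR) was female and 10 weeks old, the diabetic group (DIA) had blood glucose above 300 mg/dl on 3 consecutive days, and the AAT group had been treated with alpha-1-antitrypsin, a serum protease inhibitor, and showed stable reversion with no need of insulin. Each group had 2 Affymetrix arrays, so that 6 arrays are compared. All mice were NOD and no other allele or transgene is labelled; age and sex are labelled for NOR alone, and the fat depot and the AAT dose are not given in the sources used here. Nothing in the labels ties the 2 arrays of a group to different mice or pools. The p-values therefore reflect no more than the spread between these samples, and that spread may be technical. The labelled tissue was checked against 10 adipocyte markers. The 8 with a probe set all passed the filter, among them Adipoq, whose signal ran from 15690 to 48984 over the 6 arrays.

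A dividing cell first loads the MCM helicase onto replication origins with the help of Cdc6 and Cdt1. It then copies its DNA with the sliding clamp PCNA and nucleotides supplied by ribonucleotide reductase, thymidylate synthase and thymidine kinase. Cyclin A2 and the B cyclins switch on CDK1 to bring the cell into mitosis, the Aurora and Polo kinases and the kinesins build and check the spindle, and the ubiquitin machinery around CDC20 and UBE2C ends mitosis. Mature adipocytes seldom divide, and in fat tissue these transcripts are known mainly from progenitors, endothelium and resident or infiltrating blood cells. In whole tissue, fewer dividing cells and less transcript per cell cannot be told apart.

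Technical measures differed between the arrays. The beta-actin control is read near both ends of its transcript, and its 3'/5' ratio, a measure of RNA integrity, was 3.63 and 4.30 in NOR, 15.2 and 15.5 in DIA and 9.08 and 5.87 in AAT. On the scaled values the hybridisation controls had a mean signal of 128547 on NOR 1 and 86286 on AAT 2. On the other 4 arrays it was 25159 to 48494. NOR 1 and AAT 2 are called the high-control arrays below. NOR 1 correlated with the other arrays across genes at 0.755 to 0.839; the other pairs lay between 0.821 and 0.931. No 2 arrays shared a single identical value.

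Most of these genes had lower signals in diabetic than in normoglycemic fat, and none of the differences passed the adjusted threshold. Pcna, Ube2c, Cdk1 and Ccna2 had the smallest p-values. Of the 30 members tested 22 were lower in DIA, where 53.6% of all genes were, and 8 were higher (46.4%). The median log2 difference was −0.36 against −0.055 over all 13043 genes. No member passed the adjusted threshold by limma, as 0 of all genes did (0%), and the smallest adjusted p of a member was 0.467. At an unadjusted p under 0.05 there were 4 members, all lower, beside 4.62% of all genes lower, 5.27% higher and 9.9% in either direction. The signals of 13 members were lower on both DIA arrays than on both NOR arrays (24.5% of all genes) and those of 2 were higher (20.2%). The count of 4 fell to 2 without NOR 1, without DIA 1 or without DIA 2, and was 5 without AAT 1.

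**Figure D1:**
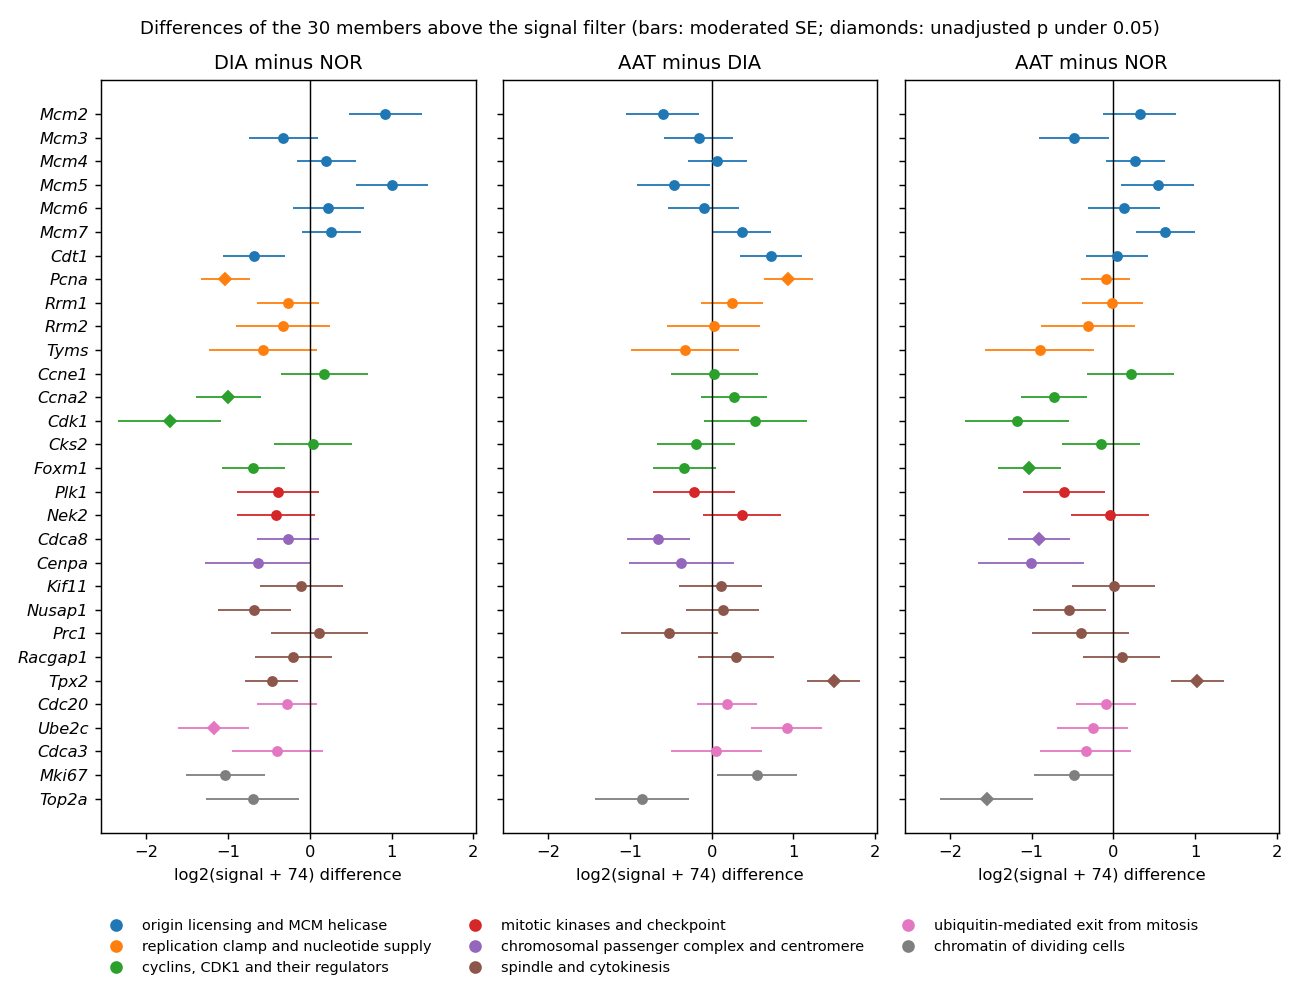
Log2(signal + 74) difference of each of the 30 members above the signal filter in the 3 comparisons, coloured by role, with the moderated SE as bars and diamonds for an unadjusted p under 0.05. In DIA minus NOR 22 points lie below 0, Cdk1 farthest at −1.71, while Mcm2 and Mcm5 lie above it at 0.92 and 1.01.

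Differences are on the log2(signal + 74) scale, which understates changes of weak genes, and are given ± the moderated SE of limma with n = 2 arrays per group. Pcna, the clamp that holds DNA polymerase on its template, had signals of 1512 and 1854 in NOR, 829 and 736 in DIA, and 1489 and 1646 in AAT. Both DIA arrays lay below the other 4. Its difference between DIA and NOR was −1.03 ± 0.30 (unadjusted p = 0.00861, limma) and ranged from −1.17 to −0.89 when each array was left out in turn. Its unadjusted p was 0.0564 without NOR 2.

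Ube2c, the ubiquitin-conjugating enzyme of the anaphase-promoting complex, gave 359 and 313 in NOR, 131 and 86.9 in DIA, and 293 and 247 in AAT. Again the DIA arrays stood apart from the rest, with a difference from NOR of −1.17 ± 0.43 (unadjusted p = 0.0259). With either NOR array or either DIA array left out the p lay between 0.0540 and 0.121. The other members of the machinery that ends mitosis, Cdc20, the activator of that complex, and Cdca3, differed by −0.28 ± 0.36 and −0.40 ± 0.55.

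Cdk1, the kinase that drives entry into mitosis, gave 732 and 293 in NOR, 26.6 and 199 in DIA, and 197 and 139 in AAT. Both NOR arrays were above the other 4, and the arrays within NOR and within DIA lay far apart. The difference of −1.71 ± 0.63 (unadjusted p = 0.0255) became −0.99 without DIA 1 (unadjusted p = 0.183) and −1.15 without NOR 1 (unadjusted p = 0.170). Cyclin A2 (Ccna2), its partner in S phase and early mitosis, gave 594 and 445 in NOR, 298 and 160.0 in DIA, and 295 and 270.0 in AAT. Its difference was −0.996 ± 0.40 (unadjusted p = 0.0371), and it was −0.66 without DIA 2 (unadjusted p = 0.224) and −0.81 without NOR 1 (unadjusted p = 0.153). A further Ccna2 probe set differed by −0.24.

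Mki67, the antigen of proliferating cells that coats mitotic chromosomes, gave 257 and 449 in NOR against 112 and 149 in DIA, with 159 and 307 in AAT. Its groups did not overlap between DIA and NOR, and the difference was −1.03 ± 0.49 (unadjusted p = 0.0663). Foxm1, the transcription factor of the mitotic programme, gave 1357 and 1018 in NOR and 732 and 668 in DIA, a difference of −0.69 ± 0.39. Its other probe sets, all under the filter, differed by 0.97, −0.36 and −0.048. Cdt1, which loads the MCM helicase, gave 762 and 704 against 471 and 389, a difference of −0.68 ± 0.38. With the probe sets used, every DIA array lay below every NOR array for these 3 genes, but none had an unadjusted p under 0.05.

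**Figure D2:**
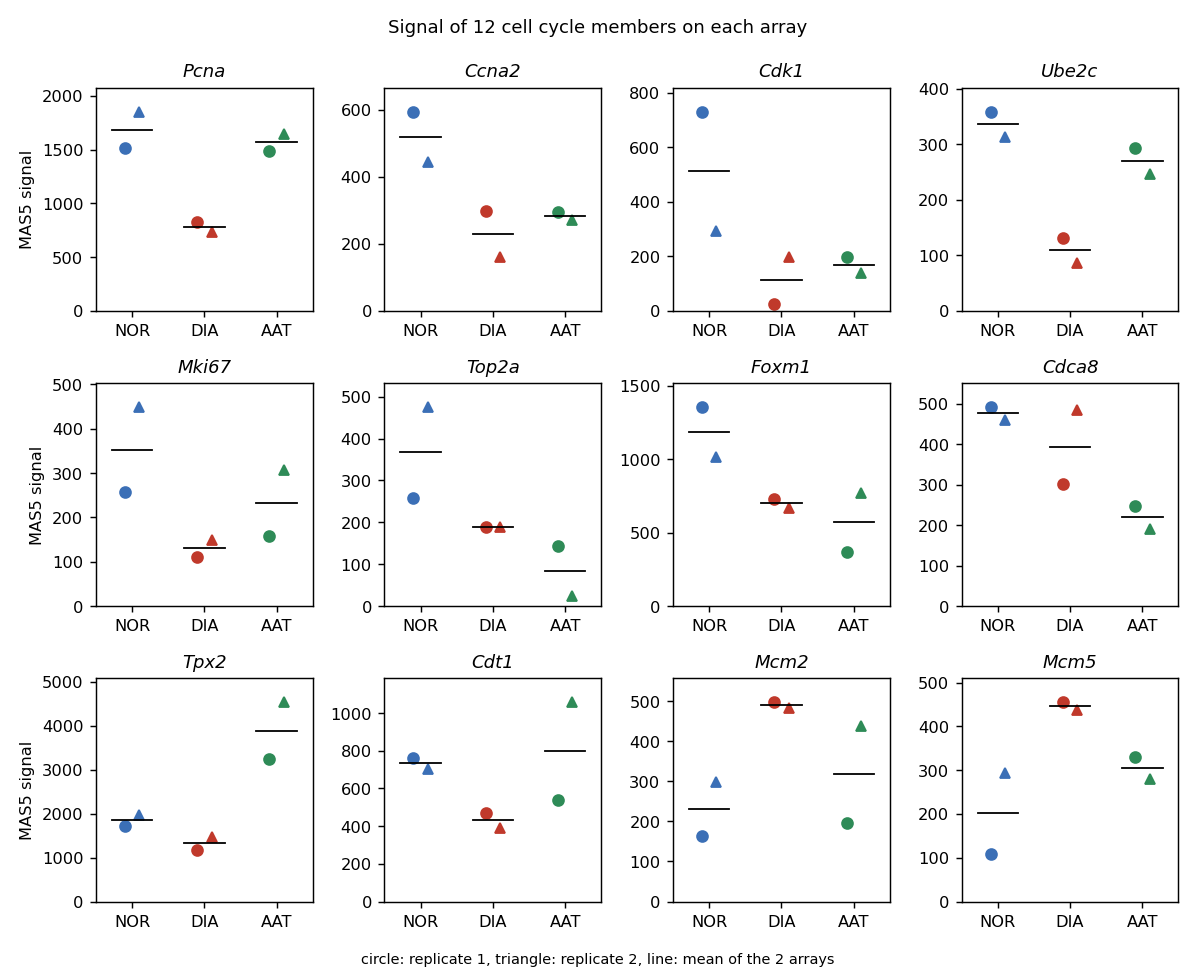
MAS5 signal of 12 members on each of the 6 arrays (circle replicate 1, triangle replicate 2, line the mean of the 2 arrays), each panel with its own axis from 0. Pcna and Ube2c are lower on both DIA arrays than on the other 4, Top2a and Cdca8 have their lowest signals on the AAT arrays, and Tpx2 is highest there.

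The remaining members above the filter are given by role. Of the nucleotide suppliers, the ribonucleotide reductase subunits Rrm1 and Rrm2 differed by −0.27 ± 0.38 and −0.33 ± 0.57 and thymidylate synthase (Tyms) by −0.58 ± 0.66. Rrm2 gave 149 and 472 in NOR, 168 and 243 in DIA, and 132 and 312 in AAT, so that its groups overlapped in all 3 comparisons; without NOR 2 its difference between DIA and NOR turned to 0.32. Of the mitotic kinases, Plk1 differed by −0.39 ± 0.50 and Nek2 by −0.41 ± 0.48. Of the spindle and cytokinesis genes, the kinesin Kif11, the microtubule binders Nusap1 and Prc1, the spindle factor Tpx2 and the GTPase regulator Racgap1 ranged from −0.68 for Nusap1 to 0.12 for Prc1. Cdca8, of the chromosomal passenger complex, and the centromeric histone Cenpa differed by −0.26 ± 0.38 and −0.63 ± 0.65. Ccne1, cyclin E1 of S phase entry, and Cks2, a CDK-binding protein, were at 0.18 ± 0.53 and 0.039 ± 0.48. Top2a, the topoisomerase that untangles replicated DNA, differed by −0.70 ± 0.57.

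The MCM helicase subunits had the opposite sign from most other members. Of Mcm2 to Mcm7, 5 of 6 were higher in DIA than in NOR (46.4% of all genes), with a median of 0.25 and the same count after quantile normalization or median centring. Of the 3 that could be read through other kinds of probe set, described next, 0 were higher. The 23 members outside the origin licensing group had a median of −0.41. Mcm5 gave 108 and 294 in NOR, 455 and 438 in DIA, and 329 and 279 in AAT, a difference of 1.01 ± 0.45 between DIA and NOR (unadjusted p = 0.0525). Mcm2 gave 165 and 297 in NOR, 497 and 484 in DIA, and 197 and 439 in AAT, a difference of 0.92 ± 0.45 (unadjusted p = 0.0719). Both DIA arrays were above all the others for these 2 genes. Mcm4, Mcm6 and Mcm7 differed by 0.20 to 0.26 and Mcm3 by −0.32.

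All 6 of these MCM values came from probe sets whose names end in _s_at or _x_at, which mark probes shared with other transcripts or similar to unrelated sequences. The other probe sets of Mcm5 gave 300.4 and 100.2 in NOR against 8.33 and 51.6 in DIA, and 126 and 59.7 against 78.3 and 7.02; the other one of Mcm2 gave 135 and 129 against 67.5 and 91.1. These lay under the signal filter and had the opposite sign. When _s_at and _x_at probe sets were left out, an alternative chosen after the values were seen, Mcm4, Mcm6 and Mcm7 had another probe set above the filter, with differences of −0.036 ± 0.35, −0.33 ± 0.43 and −0.68 ± 0.35. Of the MCM probe sets above the filter that are of neither kind, none was higher in diabetic fat. With that choice 21 of 23 members were lower in DIA, where 55.6% of all genes were. The members' median was −0.58 against −0.084 over all genes. The 4 members with an unadjusted p under 0.05 were all lower (5.13% of all genes). Cdk1, Top2a, Plk1 and Tyms had again passed the filter only through their NOR signals.

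Of the 30 members, 12 (40%) were read through such a probe set, and 11.8% of all genes above the filter were. For 25 of the 30 members the array carried further probe sets, 50 in number. Of these, 21 had the opposite sign from the one used in DIA minus NOR; of the 16 above the filter, 6 did. Among those above the filter, Mcm7 had 4 probe sets at 0.26, 0.25, −0.077 and −0.68, and Cks2 had 0.039 and −0.76. The 3 probe sets of Cdca3 were all negative, at −0.40, −0.71 and −0.76. Pcna, Cdk1, Ube2c and Mki67 each had 1 probe set, so that no second reading exists for them.

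**Figure D3:**
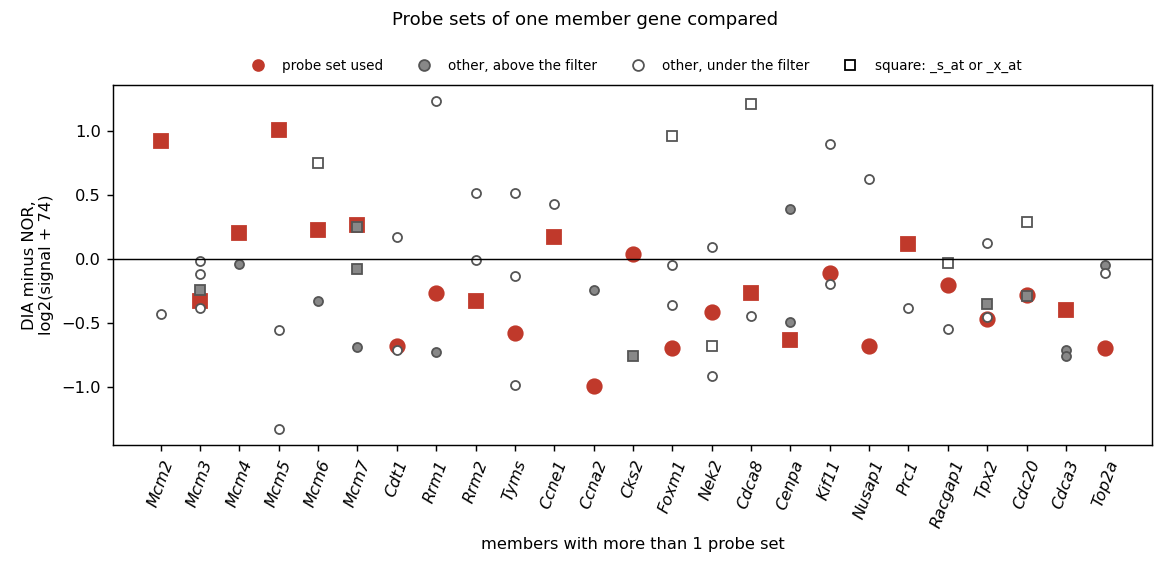
DIA minus NOR difference on the log2(signal + 74) scale for every probe set of the 25 tested members that have more than 1; red marks the probe set used, grey and white the others above and under the signal filter, squares those ending in _s_at or _x_at. The red squares of Mcm2 and Mcm5 lie at 0.92 and 1.01 and the other probe sets of both genes lie below 0.

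Promoters are shown for Pcna, Cdk1, Ube2c, Mki67, Top2a and Cdca8, whose signals were lower in diabetic or AAT-treated fat. Mcm2 is shown as well, which had the opposite sign with the _s_at probe set used but not with its other one. Ccna2, Foxm1 and Tpx2 were not matched. RefSeq windows on GRCm38.p6 were found for 38 of the 46 members (40 windows), and the 250 bases before each start were searched on both strands for 3 motifs known from cell cycle promoters. These were the cell cycle genes homology region (CHR, TTTGAA), which the DREAM and FOXM1 complexes bind, the CCAAT box (CCAAT) of NF-Y, and E2F sites (TTTCCCGC, TTTCGCGC, TTTGCCGC or TTTGGCGC). Matches may overlap. A match is a description and no proof of binding. Sequences run 5′ to 3′ on the gene's strand up to the base before the start, with matches in capitals.

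Pcna, chr2:132253181-132253430, minus strand: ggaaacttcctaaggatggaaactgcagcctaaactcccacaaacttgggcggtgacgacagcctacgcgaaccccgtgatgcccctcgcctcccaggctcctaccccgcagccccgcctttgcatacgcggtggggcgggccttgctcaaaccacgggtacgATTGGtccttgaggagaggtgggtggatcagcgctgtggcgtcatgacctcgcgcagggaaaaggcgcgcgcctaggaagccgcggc

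Cdk1, chr10:69352913-69353162, minus strand: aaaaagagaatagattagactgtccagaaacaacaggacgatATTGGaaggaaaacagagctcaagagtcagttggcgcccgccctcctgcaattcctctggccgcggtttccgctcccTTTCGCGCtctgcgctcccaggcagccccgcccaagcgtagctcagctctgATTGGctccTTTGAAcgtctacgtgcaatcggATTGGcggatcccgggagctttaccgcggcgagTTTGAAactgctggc

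Ube2c, chr2:164769679-164769928, plus strand: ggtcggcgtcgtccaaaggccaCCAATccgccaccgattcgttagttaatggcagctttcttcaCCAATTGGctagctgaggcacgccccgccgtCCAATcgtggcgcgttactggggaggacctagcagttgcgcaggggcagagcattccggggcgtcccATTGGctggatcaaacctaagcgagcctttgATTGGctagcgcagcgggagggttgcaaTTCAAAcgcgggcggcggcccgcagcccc

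Mki67, chr7:135716380-135716629, minus strand: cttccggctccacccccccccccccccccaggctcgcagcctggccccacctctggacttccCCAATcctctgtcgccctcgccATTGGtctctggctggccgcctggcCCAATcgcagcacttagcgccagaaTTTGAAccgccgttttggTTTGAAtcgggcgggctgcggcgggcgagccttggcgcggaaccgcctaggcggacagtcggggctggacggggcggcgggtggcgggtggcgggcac

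Top2a, chr11:99024190-99024439, minus strand: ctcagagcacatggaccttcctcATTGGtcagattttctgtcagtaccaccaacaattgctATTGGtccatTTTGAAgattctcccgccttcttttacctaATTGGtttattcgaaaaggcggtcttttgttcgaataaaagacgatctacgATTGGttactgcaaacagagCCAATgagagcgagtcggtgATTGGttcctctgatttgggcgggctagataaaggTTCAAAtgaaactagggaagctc

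Cdca8, chr4:124936918-124937167, minus strand: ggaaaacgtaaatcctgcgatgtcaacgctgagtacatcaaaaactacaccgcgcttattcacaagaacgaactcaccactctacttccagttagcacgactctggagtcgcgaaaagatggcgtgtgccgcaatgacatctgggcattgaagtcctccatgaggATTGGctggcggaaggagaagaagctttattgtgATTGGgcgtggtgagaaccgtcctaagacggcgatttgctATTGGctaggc

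Mcm2, chr6:88898781-88899030, minus strand: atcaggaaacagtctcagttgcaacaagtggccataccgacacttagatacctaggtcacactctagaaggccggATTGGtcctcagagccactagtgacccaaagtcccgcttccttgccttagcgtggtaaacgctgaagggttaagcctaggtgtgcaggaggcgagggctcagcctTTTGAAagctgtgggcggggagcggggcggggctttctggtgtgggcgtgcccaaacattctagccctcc

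The Cdk1 window held 2 CHR letters, 3 CCAAT boxes and 1 E2F match, and that of Ube2c 6 CCAAT boxes and 1 CHR, 29 bases before the start. Top2a also had 6 CCAAT boxes, with 2 CHR matches, and Mki67 had 3 and 2. Cdca8 held 3 CCAAT boxes and no CHR or E2F match, and the windows of Cdt1 and Nusap1, also lower in DIA on both arrays, held none of the 3 motifs. Pcna held a single CCAAT box, and Mcm2 had 1 CCAAT box and 1 CHR. Over the 40 member windows 80% held a CCAAT box, against 33.8% of all 32851 windows of the same length. A CHR was in 22.5% against 16%, both together were in 22.5% against 5.55%, and an E2F match was in 12.5% against 1.86%.

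The AAT-treated group asks whether these differences were present after reversion. Compared with diabetic fat, AAT-treated fat had higher Tpx2 and Pcna, and the members as a whole were spread over both directions. Of the 30, 18 were higher and 12 lower (51.2% and 48.8% of all genes), with a median of 0.064 against 0.011 over all genes. None passed the adjusted threshold by limma (0% of all genes; smallest adjusted p of a member 0.600), and 2 had an unadjusted p under 0.05, both higher (4.77% of all genes, 2.94% higher and 1.83% lower). This count was 1 without DIA 2 or without AAT 2 and 3 without AAT 1, and the median was −0.087 without AAT 2 and 0.28 without AAT 1. Without _s_at and _x_at probe sets 16 of 23 members were higher and 7 lower (47.3% of all genes lower), with a median of 0.27 against 0.028 over all genes. Mcm7, Pcna and Tpx2 then had an unadjusted p under 0.05, all higher, and no member was lower at that threshold (1.8% of all genes). Among all genes tested with this choice, too, more were higher than lower at that threshold. Mcm7, at 0.89, was read here through the weakest of its probe sets above the filter. Its _s_at and _x_at probe sets differed by 0.37, −0.073 and 0.0069 between AAT and DIA. Groups did not overlap for 5 members that were higher (17.9% of all genes) and 4 that were lower (15.9%). This comparison and the one before it use the same DIA arrays, so low DIA signals enter both.

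Pcna differed by 0.94 ± 0.30 between AAT and DIA (unadjusted p = 0.0138), and its p was 0.0626 without DIA 2 and 0.0603 without AAT 2. Ube2c differed by 0.92 ± 0.43 and Cdt1 by 0.72 ± 0.38, with signals of 536 and 1057 for Cdt1 in AAT; their unadjusted p were 0.0657 and 0.0889, and for both genes the AAT arrays lay above the DIA arrays. Mki67 differed by 0.55 ± 0.49, Cdk1 by 0.53 ± 0.63 and Ccna2 by 0.27 ± 0.40. Foxm1 differed by −0.34 ± 0.39 and Top2a by −0.85 ± 0.57. Mcm2 and Mcm5 differed by −0.60 ± 0.45 and −0.46 ± 0.45.

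Tpx2, which activates Aurora A and nucleates spindle microtubules, gave 1723 and 1977 in NOR, 1174 and 1469 in DIA, and 3243 and 4537 in AAT. Both AAT arrays were above the other 4. The difference was 1.49 ± 0.33 from DIA (unadjusted p = 0.00157, adjusted p = 0.600) and 1.03 ± 0.33 from NOR (unadjusted p = 0.0127), and it ranged from 1.26 to 1.73 against DIA with each array left out. Against NOR its unadjusted p was 0.0664 without NOR 1 and 0.0858 without AAT 2. A second probe set, of the _x_at kind, gave 923 and 1931 in NOR, 1357 and 781 in DIA, and 3129 and 3806 in AAT. The remaining 2 gave 14.2 to 125 over all arrays, under the filter, with AAT signals of 67.8 and 52.4 and of 27.3 and 91.8. Signals above those of the other groups on both AAT arrays were thus seen with 2 of the 4 probe sets. The summed signal of 10 smooth muscle markers, all above the filter, was also highest on both AAT arrays, at 66883 and 102021. It was 16777 and 11199 in DIA and 8672 and 34447 in NOR. Between DIA and NOR these sums overlapped, as did the signals of the second Tpx2 probe set, and those of the one used did not. The part of muscle tissue in the Tpx2 signal was not tested.

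Compared with normoglycemic fat, AAT-treated fat had lower Foxm1, Top2a and Cdca8, and higher Tpx2. Of the 30 members 20 were lower and 10 higher (52% and 48% of all genes), with a median of −0.20 against −0.025 over all genes; 10 were lower with no overlap (16.1%) and 2 higher (16%). By limma 0 passed the adjusted threshold (0% of all genes; smallest adjusted p 0.890). At an unadjusted p under 0.05 there were 3 lower members (1.72% of all genes) and 1 higher (3.41%). Of the lower ones, Top2a had passed the filter only through its NOR signals. The total of 4 was 1 without NOR 1 and 2 without DIA 1, DIA 2, AAT 1 or AAT 2, and the median was 0.023 without AAT 1 and −0.43 without AAT 2. With median centring the members' median was −0.064 and 16 of 30 were lower, and with the filter at the 60th percentile it was −0.013 over 15 members.

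Top2a gave 259 and 476 in NOR, 189.6 and 189.9 in DIA, and 143 and 24.4 in AAT, which were the lowest of the 6. Its difference from NOR was −1.55 ± 0.57 (unadjusted p = 0.0254), and it was −0.98 without AAT 2 (unadjusted p = 0.115) and −2.12 without AAT 1. Its unadjusted p was also above 0.05 without NOR 2 (0.155), DIA 1 (0.0505) or DIA 2 (0.0511). Its second probe set above the filter differed by −0.42. Foxm1 gave 369.6 and 773 in AAT, a difference from NOR of −1.03 ± 0.39 (unadjusted p = 0.0277), which was −0.56 without AAT 1 (unadjusted p = 0.202) and −0.83 without NOR 1 (unadjusted p = 0.118). The other probe sets of Foxm1, all under the filter, differed by 0.71 (an _x_at one), 0.13 and −0.048. Cdca8 gave 492 and 460.3 in NOR, 301 and 484 in DIA, and 248 and 191 in AAT. Its difference was −0.91 ± 0.38 (unadjusted p = 0.0415), with p from 0.0566 to 0.128 in all 6 fits that left out 1 array. It was read through an _s_at probe set; its other probe sets, both under the filter, differed by 0.69 and −0.67. Cdk1 differed from NOR by −1.18 ± 0.63 and Ccna2 by −0.72 ± 0.40, and in both the AAT arrays lay below the NOR arrays. Pcna was at −0.093 ± 0.30.

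By array, the median level of the 30 members on the log2(signal + 74) scale was 8.75 and 8.85 in NOR, 8.48 and 8.53 in DIA, and 8.19 and 8.62 in AAT. Over all genes it lay between 9.36 and 9.46. Both NOR arrays were above the other 4, and the lowest value was that of AAT 1. Without both high-control arrays, a choice made after seeing the data, the median difference was −0.45 between AAT and NOR. It was 0.023 without AAT 1. The part of the high control signals in these levels was not tested. The beta-actin ratio was lowest on the NOR arrays, where the members were highest, and highest on the DIA arrays. AAT 1, the array with the lowest member median, had 9.08. The 3'/5' ratio of the Gapdh control was lowest on AAT 2, at 0.79. It was 0.91 and 0.95 in NOR, 2.46 and 4.63 in DIA, and 2.31 on AAT 1. The part of RNA quality in the members' levels was not tested.

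**Figure D4:**
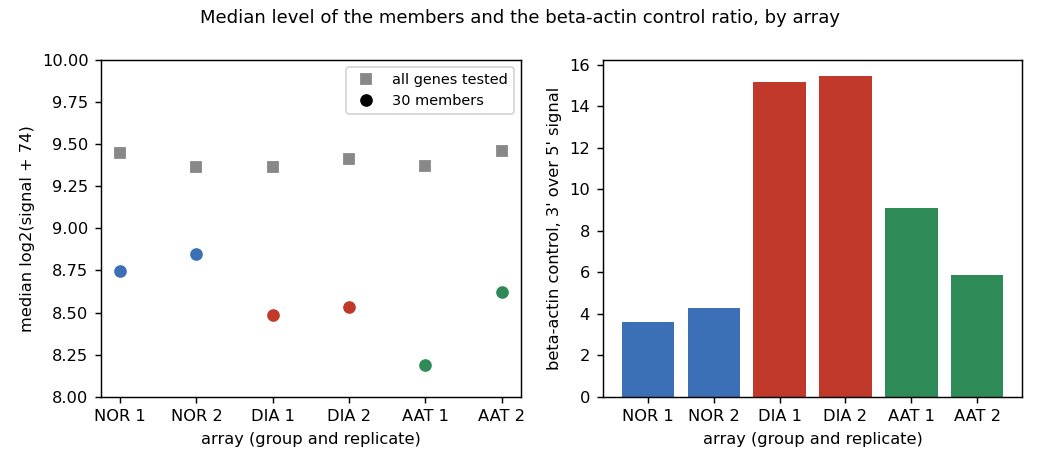
Left, median log2(signal + 74) of the 30 members (coloured by group) and of all 13043 genes tested (grey squares) on each array; right, 3' over 5' signal ratio of the beta-actin control. The members' medians are 8.75 and 8.85 in NOR and 8.62 or less elsewhere, and the beta-actin ratio is 15.2 and 15.5 in DIA.

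The 15 members under the filter had mean signals from 23.8 to 140.0 and are given as values with no test. They include the licensing factor Cdc6 and its inhibitor geminin (Gmnn), thymidine kinase (Tk1), cyclins Ccne2 and Ccnb2, the kinases Aurka, Aurkb, Melk, Bub1, Bub1b and Ttk, the survivin gene Birc5, the centromere motor Cenpe, and the kinesins Kif20a and Kif23. Of these, 13 had a lower mean log2 level in DIA than in NOR, and 12 a lower one in AAT than in NOR. Among genes above the filter 53.6% and 52% were lower, and no such share was computed for genes under it. The signals of 4 of the 15 members were lower on both DIA arrays than on both NOR arrays. Those of 1, Cdc6, were higher (116 and 69.3 against 15.4 and 67.2). Among genes above the filter these shares were 24.5% and 20.2%. Among the 4, Aurkb, the kinase of the passenger complex, gave 328 and 183 in NOR, 62.0 and 24.1 in DIA, and 18.5 and 215 in AAT. Bub1, a spindle checkpoint kinase, gave 241 and 137 in NOR, 121 and 98.8 in DIA, and 26.5 and 108 in AAT. Signals of single arrays in this group ran from 5.21 to 328.

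Other cell cycle genes were taken from a list of 118, of which 97 passed the filter. In DIA minus NOR 67 of the 97 were lower (53.6% of all genes), with a median of −0.22. At an unadjusted p under 0.05, 1 was lower and 1 higher, fewer than the 9.9% of all genes would give. Anln, the cytokinesis scaffold anillin, gave 938 and 539 in NOR against 262 and 307 in DIA, with 225 and 629 in AAT, a difference of −1.14 ± 0.48 (unadjusted p = 0.0431; 0.204 without NOR 1, 0.146 without DIA 1 and 0.0977 without DIA 2). Incenp, the scaffold of the passenger complex, read through an _x_at probe set, gave 260.4 and 585 in NOR, 943 and 918 in DIA, and 896 and 485 in AAT. It differed by 1.10 ± 0.43 (unadjusted p = 0.0331), and by 0.61 without NOR 1; its unadjusted p was 0.108 without DIA 1 and 0.0986 without DIA 2. Against the 53.6% of all genes that were lower, 20 of 29 other replication factors were, 14 of 17 RB, E2F and DREAM regulators, 15 of 21 other mitotic genes, and 10 of 15 checkpoint and antiproliferative genes. Of the CDK inhibitors 4 of 6 were lower, and of the G1 cyclins and CDKs 4 of 9, with a median of 0.088. E2f1, which drives S phase genes, gave 239 and 244 in NOR, 127 and 291 in DIA, and 91.7 and 317 in AAT, and its groups overlapped, with a DIA minus NOR difference of −0.22 ± 0.57.

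Of the genes that restrain the cycle, Cdkn1a, Cdkn1b and Gas1 had their highest signals in AAT-treated fat. The 10 smooth muscle markers were also higher on both AAT arrays than on both NOR arrays. The part of muscle tissue in the signals of Cdkn1a, Cdkn1b and Gas1 was not tested. Of the 6 CDK inhibitors tested, 3 were higher and 3 lower in AAT than in NOR. Cdkn1a, the CDK inhibitor p21, gave 367 and 2263 in NOR, 1171 and 2072 in DIA, and 5705 and 3125 in AAT. Both AAT arrays were above the other 4, with a difference from NOR of 2.08 ± 0.71 (unadjusted p = 0.0186, adjusted p = 0.890) that was 0.88 without NOR 1 (unadjusted p = 0.134) and 3.28 without NOR 2. Its unadjusted p was 0.103 without AAT 1. Cdkn1b, the CDK inhibitor p27, gave 839 and 1119 in NOR, 1835 and 1225 in DIA, and 2001 and 2180 in AAT, a difference from NOR of 1.05 ± 0.33 (unadjusted p = 0.0131; 0.0824 without NOR 1 and 0.0553 without AAT 2). Gas1, a growth arrest gene, gave 1920 and 3397 in NOR, 5607 and 3257 in DIA, and 7919 and 8778 in AAT. It differed by 1.68 ± 0.41 from NOR (unadjusted p = 0.00303) and by 0.95 ± 0.41 from DIA (unadjusted p = 0.0462; above 0.05 without DIA 2, AAT 1 or AAT 2). For Gas1 the unadjusted p against NOR stayed under 0.05 in all 6 fits that left out 1 array, and the difference ran from 1.28 to 2.08. Cdkn1c, the CDK inhibitor p57, was at 0.40 ± 0.63 between AAT and NOR, with 886 and 2138 in NOR, 811 and 807 in DIA, and 3720 and 898 in AAT.

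Of the D cyclins, which act at the start of the cycle, Ccnd2 gave 4230.0 and 5332 in NOR, 6429 and 8141 in DIA and 3308 and 4306 in AAT, an AAT minus DIA difference of −0.93 ± 0.34 (unadjusted p = 0.0242; 0.109 without DIA 2 and 0.113 without AAT 1). Ccnd1 gave 303 and 2245 in NOR, 860.5 and 982 in DIA, and 1884 and 1164 in AAT, and differed by 0.088 ± 0.72 between DIA and NOR. In AAT minus NOR the list had 6 genes with an unadjusted p under 0.05: Gas1, Cdkn1a and Cdkn1b were higher, and Hmmr, Fen1 and Ncaph lower. These 6 of 97 stand beside 5.13% of all genes (3.41% higher and 1.72% lower), so the list's share was near the background. The hyaluronan receptor and spindle protein Hmmr gave 1574 and 420.5 in NOR, 480.1 and 467 in DIA, and 119.8 and 304 in AAT. It differed by −1.74 ± 0.58, but by −0.17 when read without _x_at probe sets, and by −0.87 without NOR 1 and −1.26 without AAT 1, both with an unadjusted p above 0.05. The flap endonuclease Fen1 gave 1696 and 940.1 in NOR, 813 and 757 in DIA, and 756 and 118 in AAT. It differed by −1.75 ± 0.63, and by −0.69 without AAT 2 and −1.34 without NOR 1, both with an unadjusted p above 0.05. The condensin subunit Ncaph gave 422 and 682 in NOR, 369 and 361 in DIA, and 243 and 283 in AAT. It differed by −0.86 ± 0.37, and by −0.56 without NOR 2; its unadjusted p was under 0.05 in 1 of the 6 fits that left out 1 array. In no comparison did a gene of this list pass the adjusted threshold by limma.

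**Figure D5:**
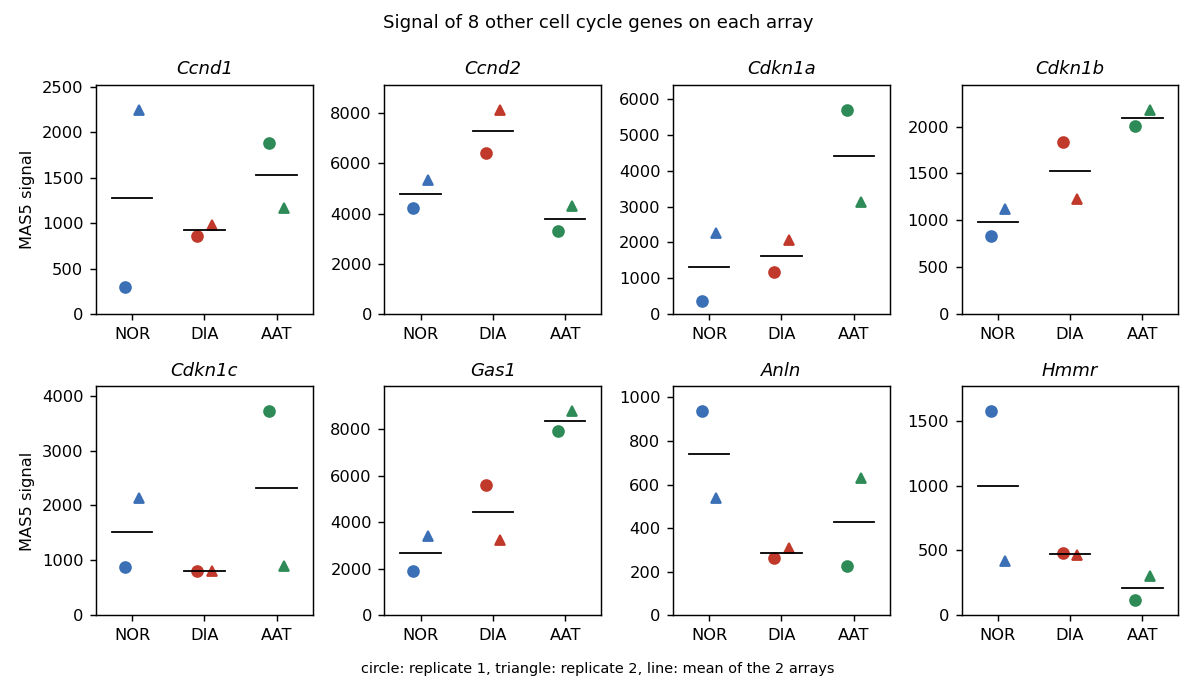
MAS5 signal of 8 other cell cycle genes on each of the 6 arrays (circle replicate 1, triangle replicate 2, line the mean of the 2 arrays), each panel with its own axis from 0. Cdkn1a, Cdkn1b and Gas1 are highest on both AAT arrays, and NOR 1 is the lowest array for Ccnd1 and Cdkn1a.

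Marker genes of cells that divide in or pass through fat were summed for each array, over all markers of a list that had a probe set. Of 10 erythroid markers 7 had a probe set and 4 passed the filter. Of these 4, 3 were lower in DIA than in NOR and 1, Tfrc, was higher (1458 and 1334 against 984 and 895). The sum over the 7 was 5319 and 10561 in NOR, 2737 and 2758 in DIA, and 9594 and 2990 in AAT. It was lower in DIA than in NOR without overlap, as Pcna and Ube2c were. The AAT sums lay apart, within the NOR range on AAT 1 and close to the DIA sums on AAT 2. Macrophage sums (10 of 10 markers above the filter) were higher in DIA than in NOR, with 6711 and 6756 in NOR, 17704 and 27614 in DIA, and 16446 and 9609 in AAT. Sums of progenitor and fibroblast markers (9 of 10 above the filter) were 29697 and 22093 in NOR, 38862 and 43798 in DIA, and 45573 and 44204 in AAT. Of the T cell markers 4 of 10 passed the filter and the sums, 1896 to 3931 in NOR and 2372 to 4117 in DIA, overlapped. B cell sums (6 of 10 above the filter) were 2528 and 4496 in NOR, 2120 and 6208 in DIA, and 30716 and 12018 in AAT. Most of the AAT sums came from the immunoglobulin genes Ighm (19419 and 3925) and Jchain (9846 and 5310), and of the 6 markers tested 3 were higher and 3 lower in AAT than in NOR. Endothelial sums ran from 3712 on NOR 1 to 33240 on NOR 2, and those of mast cells and neutrophils from 912 to 1794. The mammary epithelial sum was 17519 on AAT 2 and between 3931 and 7646 on every other array. No marker was listed at 0, since the lowest deposited signal was 0.258. The part of these cells in the members' signals was not tested.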

How the data were processed

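The deposited values are array intensities on a linear scale, 1 MAS5 signal for each of 45101 probe sets on each of 6 arrays, per the submitters' processing notes; version and genome build are not given in the sources used here. Total RNA was isolated with Trizol and biotinylated, per the labels' protocols. MAS5 corrects for background and multiplies each array by 1 factor. After trimming 2% of probe sets at each end, every array had a mean of 500.0, and that scaling was kept. The number of arrays limits the precision.

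Genes were named from the platform annotation, checked against the RefSeq gene table (GRCm38.p6): 34945 probe sets had 1 symbol, 932 several and 9160 none, and 0 symbols changed. Values were taken as log2(signal + 74), 74 being the 25th percentile of the deposited values. Probe sets with a mean signal above 164 (the 40th percentile) entered a limma fit (limma 3.58.1, R 4.3.3) of 3 group means to the 6 arrays (trended eBayes, two-sided, Benjamini-Hochberg within each contrast over 13043 genes, threshold 0.05; 3 residual and 5.36 prior degrees of freedom). The step was tested on simulated data. An exact permutation of 2 arrays against 2 cannot go below 0.333, so none was run.

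Members and lists were chosen with earlier results of these data known. Named with every array's signal were tested members with an unadjusted p under 0.05 in any contrast and always Cdk1, Ccnb1, Pcna, Mki67, Top2a, Mcm2 and Rrm2; of other listed cell cycle genes, those with such a p (at most 12) and Ccnd1, Cdkn1a, Cdkn1b, Cdkn1c and E2f1. Mcm5, Cdt1, Aurkb and Bub1 were chosen after their values were seen. Alternatives covered the offset, filter, scaling, probe set, variance model, arrays fitted, a replicate block and leaving out arrays.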

Additional observations from a re-analysis of the deposited data

How the results depend on the processing

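No member passed the adjusted threshold under any alternative run, in any of the 3 comparisons. With the filter at the 60th percentile 15 members were tested, and those with an unadjusted p under 0.05 numbered 1 in DIA minus NOR and 2 in AAT minus NOR, where the median was −0.013. The AAT minus NOR count was also 2 with quantile normalization, with median centring and with only the 2 groups compared. Leaving out 1 array gave counts of 2 to 5 in DIA minus NOR, 1 to 3 in AAT minus DIA and 1 to 4 in AAT minus NOR. The medians ran from −0.49 to −0.32, from −0.087 to 0.28 and from −0.43 to 0.023. An array left alone in its group is assumed to vary like the others. Without NOR 1 and AAT 2 together, a choice made after seeing the data, the AAT minus NOR median was −0.45. Without _s_at and _x_at probe sets, also chosen after seeing the data, 23 members were tested and the medians were −0.58 in DIA minus NOR and 0.27 in AAT minus DIA. The causes of these moves were not tested, beyond the smaller number of members or arrays. Of the single genes, Rrm2 in DIA minus NOR ran from −0.98 without NOR 1 to 0.32 without NOR 2.

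Median centring moved the median of all genes in AAT minus NOR from −0.025 to 0.11 and that of the members from −0.20 to −0.064, with 16 of 30 lower in place of 20. Members minus all genes, which this scaling cannot change, was −0.18. It also moved the share of higher genes at an unadjusted p under 0.05 from 61.6% to 75% in AAT minus DIA. The titles number the arrays 1 and 2 in each group, with nothing to say that the numbers pair samples. Deviations of same-numbered arrays correlated at 0.075 (NOR and DIA), −0.51 (NOR and AAT) and −0.12 (DIA and AAT), so the pairing was not used. With the replicate block the counts at an unadjusted p under 0.05 were 3, 2 and 3. Weak signals are a limit as well: 15 of 45 members lay under the filter.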
